A study of Mus musculus with 12 samples.

Results

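The 49 genes described here encode the machinery that moves newly made secretory and membrane proteins between the endoplasmic reticulum (ER) and the Golgi and that builds and attaches their N-linked glycans. They were taken as a list of gene symbols, matched through the Ensembl identifiers in the count files, and form 49 of the 52636 genes counted. Each symbol matched 1 identifier, and all 49 passed the filter on low counts. There are 10 genes of the COPII coat, 19 of the COPI coat, its GTPase, its cargo receptors and the Golgi tethers, and 20 of N-glycosylation.

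Bulk RNA was sequenced from 12 tumors, 3 in each of 4 groups. The tumor, 2153L, is a mouse mammary tumor of a genetically engineered model (GEM), labelled as triple-negative breast cancer (TNBC) and carried in mammary fat pads of BALB/c females. P53ERTAM tumors carried p53 fused to a tamoxifen-responsive estrogen receptor domain, and EV tumors carried the empty vector. Combo tumors were exposed for 8 days to ORIN1001, which inhibits the RNase of the ER stress sensor IRE1α (150 mg/kg daily), with docetaxel, which stabilises microtubules (20 mg/kg weekly). Vehicle tumors received neither drug, and tamoxifen, which the fusion needs, is named in the labels only as the inducer. The labels do not give mouse ages, and nothing in them says whether the 3 tumors of a group are more than separate samples of 1 transplanted line, so p-values measure the spread between these samples.

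COPII carries cargo from the ER to the Golgi: the GTPase SAR1 recruits the SEC23-SEC24 inner coat, which selects cargo, and then the SEC13-SEC31 outer coat. COPI, recruited by the GTPase ARF1, carries escaped ER proteins and cargo receptors back. N-glycans are assembled on a lipid by the ALG enzymes, transferred to the growing chain by the oligosaccharyltransferase (OST), and trimmed by glucosidases during folding. Many of these genes are known targets of XBP1, the transcription factor whose mRNA is spliced by the IRE1α RNase, and of ATF6.

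The sequences below are shown because ORIN1001 acts on IRE1α and because they are where the members carry letters known from ER stress promoters. RefSeq promoter windows (GRCm38.p6), from 250 bases before to 50 bases after a transcript start, were at hand for 41 of the 49 members. Both strands were searched for the core of the unfolded protein response element, TGACGTGG, and for the ER stress response element ERSE, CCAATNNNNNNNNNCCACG. The first was found in 6 of the 41 members (14.6%) and in 0.823% of 17492 protein-coding genes with a window. ERSE was found in 1 member and in 0.166% of those genes. ERSE-II, in which ATTGG is followed by any 1 base and CCACG, was found in 0 members and in 0.0629% of those genes. The CCACG at the end of ERSE and ERSE-II, reversed, is part of the first motif, and Alg12, the member with ERSE, was not among the 6. The motif letters are in capitals, each sequence reads in the direction of its gene, and CCACGTCA is TGACGTGG on the opposite strand.
Sec23a, chr12:59011993-59012022, minus strand: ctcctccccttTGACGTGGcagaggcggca
Sec24d, chr3:123267459-123267488, plus strand: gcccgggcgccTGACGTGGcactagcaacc
Copb1, chr7:114254690-114254719, minus strand: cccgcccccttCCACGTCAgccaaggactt
Copb2, chr9:98563713-98563742, plus strand: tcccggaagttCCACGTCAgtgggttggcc
Arf1, chr11:59228228-59228257, minus strand: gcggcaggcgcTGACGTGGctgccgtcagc
Kdelr3, chr15:79516367-79516396, plus strand: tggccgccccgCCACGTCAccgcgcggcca
Alg12, chr15:88819509-88819549, minus strand: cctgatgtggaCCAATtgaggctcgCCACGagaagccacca

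A match is a description of these letters and was not shown to be a binding site. With combo in EV tumors Arf1 and Copb1 fell, and Sec23a, Sec24d, Copb2, Kdelr3 and Alg12 were not called, as given under each gene.

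Libraries held 13484873 to 24424964 counts. The 3 EV combo libraries stood apart: protein-coding genes took 80.9 to 81.7% of their counts, against 86.7 to 95.8% in the other 9 libraries, and the noncoding RNA Gm26917 took 10.7 to 11.1%, against 0.133 to 1.10%. Mitochondrial genes took 0.703 to 0.957% of EV combo counts and 1.43 to 2.16% of the others. The noncoding RNA Xist took 1.005 to 1.148% of EV combo counts and 0.0776 to 0.487% of the others. All 3 EV combo libraries and no others had this composition, so it cannot be told apart from an effect of combo in EV tumors. The same holds for the interaction and for the vectors under combo, which use these libraries. Replicate 2 of the P53ERTAM vehicle group had the lowest total and the lowest protein-coding share outside EV combo, and it was the lowest of its group for 41 of the 49 members. Its part in the results was not tested beyond leaving it out. The epithelial marker Epcam was present in every library, at 617 to 2515 TPM, and of the receptors that define the TNBC label Pgr was at 0 to 0.552 TPM and Erbb2 at 119 to 194 TPM. Esr1, part of which the vector carries, was at 8.97 to 9.79 TPM in P53ERTAM combo, 6.45 to 7.02 TPM in P53ERTAM vehicle, 2.17 to 3.14 TPM in EV combo and 1.21 to 2.83 TPM in EV vehicle tumors. Trp53, the mouse p53 gene, was at 47.7 to 53.7 TPM in P53ERTAM combo, 32.5 to 44.8 TPM in P53ERTAM vehicle, 35.3 to 44.9 TPM in EV combo and 31 to 43.2 TPM in EV vehicle tumors. It was called between the vectors under combo (log2 fold change 0.40 ± 0.14, adjusted p = 0.0338) but not under vehicle (adjusted p = 0.356). Whether reads of the fusion are counted in either gene was not tested.

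Levels below are normalised CPM unless given as TPM. Normalised CPM are counts scaled to a common library size by the trimmed mean of M-values (TMM), and are compared between groups only. TPM take exon length into account and are used between genes, in sums and ratios, and for some single genes across groups. They carry no TMM scaling, so TPM of EV combo tumors may also reflect the library composition described above. Log2 fold changes are given ± SE and put the combo group over vehicle or P53ERTAM over EV, and a gene is called when its adjusted p from edgeR's quasi-likelihood test is below 0.05. The interaction is the combo effect in P53ERTAM tumors minus that in EV tumors.

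Most of these genes were lower with combo in EV tumors. All 10 OST subunits among the members were lower, as were all 6 cargo receptors, the GTPases Sar1a, Sar1b and Arf1, and the KDEL receptors Kdelr1 and Kdelr2. Some of these calls were lost in other settings, as given under each gene. Of the COPII inner and outer coat genes 0 of 8 were called at the adjusted threshold, 1 at an unadjusted p below 0.05 and 0 by DESeq2. All of these but Sec23a and Sec13 have summed exons of over 6000 bases. Among protein-coding genes of at least 10 TPM with exons that long, 20.9% were lower. Whether exon length plays a part in the contrast with the OST was not tested. The tethers Golga2 and Golgb1 rose. In all, 29 of 49 members (59.2%) were lower and 2 higher, against 21.1% lower and 18.8% higher of the 17970 genes tested, and against 35.5% lower and 11.8% higher of the 9350 protein-coding genes of at least 10 TPM. The median log2 fold change was -0.50 over the members and -0.07 over all genes. The 3 EV combo libraries all lay below the 3 EV vehicle libraries for 35 members and above them for 2, against 26.9% and 23.6% of all genes.

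In P53ERTAM tumors few of these genes were called with combo. Sec13 was higher, which makes 1 of 49 higher and 0 lower, against 3.3% and 2.98% of all genes and 4.94% and 2.93% of protein-coding genes of at least 10 TPM. The median log2 fold change was 0.16 over the members and 0.00498 over all genes. The member median was 0.08 without P53ERTAM vehicle replicate 2 and 0.29 without P53ERTAM vehicle replicate 3. For the N-glycosylation genes it was 0.15 with all libraries, -0.01 without that replicate 2 and 0.28 without that replicate 3. At an unadjusted p below 0.05, 13 members were higher and 2 lower, and the share of all genes at that threshold is not given here. DESeq2 called 4 members higher and 1 lower, against 1142 and 1211 of the 17970 genes entered. The call of Sec13 was lost when 1 library was left out: its adjusted p was 0.0874 without P53ERTAM vehicle replicate 1, 0.0746 without P53ERTAM vehicle replicate 2, 0.0865 without P53ERTAM combo replicate 1 and 0.102 without P53ERTAM combo replicate 3. Without P53ERTAM vehicle replicate 3, 9 members were called higher, and over all genes that fit called 984 higher and 1146 lower.

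The combo effect itself differed between the vectors. The interaction was positive and called for 27 members and negative for Golga2 and Golgb1, against 18.8% and 17.2% of all genes. Of the 48 members among protein-coding genes of at least 10 TPM, 56.2% were positive and 4.17% negative, against 31.2% and 11.6% of that class. The median was 0.61 over the members and 0.13 over all genes. For exons under 3000 bases it was 0.681 over the members and 0.675 over all protein-coding genes of at least 10 TPM. The longer classes are given below. The 2 combo comparisons share no samples. By fitted sign, 33 of the 49 members (67.3%) were lower with combo in EV tumors and higher in P53ERTAM tumors. The shares were 32.2% of all genes tested and 36.4% of protein-coding genes. In P53ERTAM tumors 48 of the 49 members were not called, so most of these signs belong to values that were not called. The P53ERTAM median also depended on the library left out, as given above. Upper-quartile scaling gave 15 positive calls among the members and offsets for exon length gave 17. Over all genes 3377 were positive in the main fit, 1998 with upper-quartile scaling and 1736 with the offsets.

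**Figure D1:**
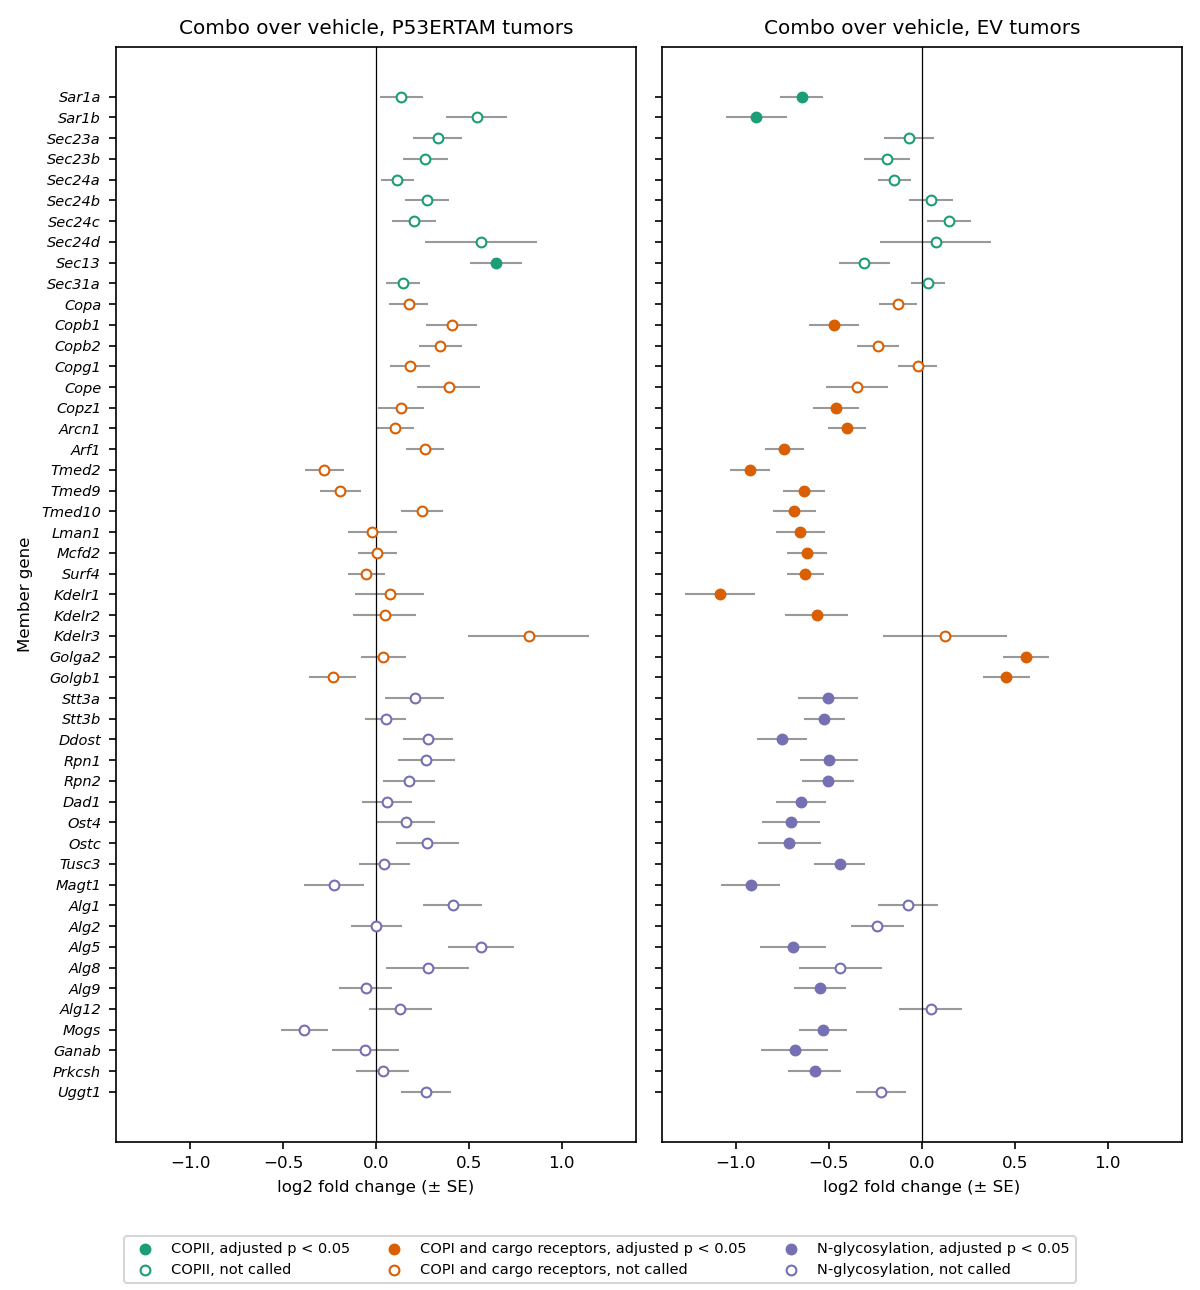
Log2 fold change of combo over vehicle ± SE for the 49 members in P53ERTAM tumors (left) and EV tumors (right), n = 3 per group; filled points have an adjusted p below 0.05 and colours mark the sub-groups. On the right 29 filled points lie below 0 and 2 above it, and on the left 1 point, Sec13, is filled.

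The vectors also differed under each treatment. Under vehicle 25 members were lower in P53ERTAM tumors and 2, Surf4 and Golgb1, were higher, against 19.8% and 17.9% of all genes and 32.4% and 14.2% of protein-coding genes of at least 10 TPM. Under combo 18 were higher in P53ERTAM tumors and 1, Sec24b, was lower, against 22.1% and 22% of all genes. Of the 48 members among protein-coding genes of at least 10 TPM, 17 were higher (35.4%) and 1 lower (2.08%), against 30% and 21.6% of that class, so the share higher was near that of genes of like level. The first count rests in part on 1 library and on the scaling: 16 members were lower without P53ERTAM vehicle replicate 2, 12 in a fit of only these groups and 13 with upper-quartile scaling. Calls over all genes fell too: 3567 were lower in the main fit, and 2712, 2380 and 2383 in these settings. The second count, of members higher under combo, was 9 with offsets for exon length. Over all genes 3966 were higher in the main fit and 3070 with these offsets. These comparisons share groups with those above and are not independent of them.

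Summed over members, the level was 6207 ± 55.8 TPM in P53ERTAM combo, 5263 ± 1285 TPM in P53ERTAM vehicle, 5201 ± 143 TPM in EV combo and 6634 ± 345 TPM in EV vehicle tumors (SD, n = 3 each). The N-glycosylation genes summed to 2735 ± 75.1 TPM in P53ERTAM combo, 2344 ± 697 TPM in P53ERTAM vehicle, 2342 ± 95.7 TPM in EV combo and 3123 ± 161 TPM in EV vehicle tumors. The COPII genes summed to 715 ± 5.87 TPM in P53ERTAM combo, 531 ± 129 TPM in P53ERTAM vehicle, 700.2 ± 29.3 TPM in EV combo and 716 ± 10.6 TPM in EV vehicle tumors. The COPII sums of EV combo and EV vehicle libraries overlapped, and the N-glycosylation sums did not. In bulk tumors, fewer cells of a type and less RNA per cell cannot be told apart.

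**Figure D2:**
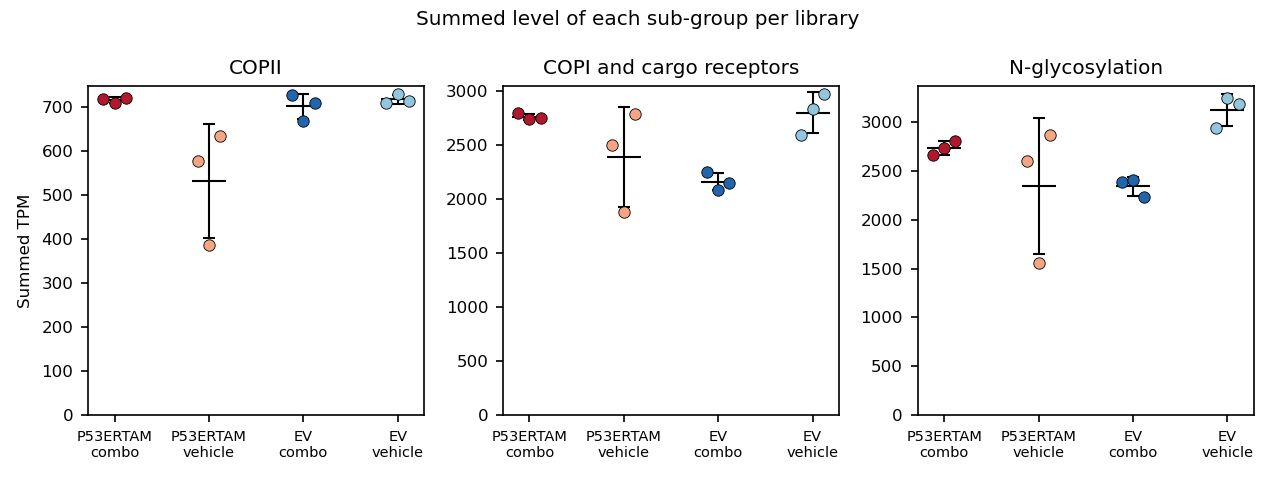
Summed TPM of the 10 COPII, 19 COPI and cargo receptor and 20 N-glycosylation genes in each library, with the mean and SD of the 3 libraries of a group. P53ERTAM vehicle replicate 2 is the lowest point in all 3 panels, and EV combo lies below EV vehicle in the COPI and N-glycosylation panels.

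COPII begins with SAR1, and both of its genes fell with combo in EV tumors. Sar1a had 180.4, 177 and 171 CPM in P53ERTAM combo tumors, 177, 128 and 175 CPM in P53ERTAM vehicle tumors, 109, 101 and 112 CPM in EV combo tumors, and 173, 160.3 and 170.2 CPM in EV vehicle tumors. The EV combo libraries lay below all others (log2 fold change -0.65 ± 0.12, adjusted p = 0.00107), and the P53ERTAM groups overlapped. Sar1b had 23.97, 22.99 and 20.1 CPM in P53ERTAM combo tumors, 15.1, 11.97 and 18.9 CPM in P53ERTAM vehicle tumors, 15.9, 14.7 and 13.2 CPM in EV combo tumors, and 25.9, 28.2 and 26.98 CPM in EV vehicle tumors. It was lower in EV combo than in EV vehicle tumors in every library (log2 fold change -0.89 ± 0.17, adjusted p = 0.00128) and higher in every P53ERTAM combo than P53ERTAM vehicle library without passing the threshold (log2 fold change 0.54 ± 0.16, adjusted p = 0.0655). Its interaction, 1.43 ± 0.23, was called (adjusted p = 0.000902). Sar1b (chr11:51763687-51791925, plus strand) lies head to head with Sec24a (chr11:51692264-51763634, minus strand) with 52 bases between the gene limits that the files give. The RefSeq promoter windows are set at transcript starts that lie further apart.

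The SEC23 genes, which activate the SAR1 GTPase within the inner coat, were not called with combo. Sec23a had 38.3, 34.7 and 43.1 CPM in P53ERTAM combo tumors, 30.6, 28.04 and 33.5 CPM in P53ERTAM vehicle tumors, 37.2, 28.2 and 31.1 CPM in EV combo tumors, and 32.5, 36.2 and 32.6 CPM in EV vehicle tumors. Sec23b had 96.3, 100.3 and 99.05 CPM in P53ERTAM combo tumors, 96.4, 64.97 and 84.3 CPM in P53ERTAM vehicle tumors, 98.8, 98.1 and 94.6 CPM in EV combo tumors, and 117, 111 and 104 CPM in EV vehicle tumors. Sec23b was lower in P53ERTAM than in EV vehicle tumors (log2 fold change -0.43 ± 0.12, adjusted p = 0.014), a call lost at 0.0888 with upper-quartile scaling and 0.0734 with only the 2 groups of the comparison. The SEC24 proteins bind cargo, and 0 of their 4 genes were called with combo in either vector by edgeR or by DESeq2; at an unadjusted p below 0.05, Sec24b was higher in P53ERTAM tumors and none passed in EV tumors. Sec24a had 62.9, 65.7 and 62.1 CPM in P53ERTAM combo tumors, 58.2, 56.2 and 61.7 CPM in P53ERTAM vehicle tumors, 63.1, 65.8 and 64.6 CPM in EV combo tumors, and 73.4, 69.6 and 71.2 CPM in EV vehicle tumors. Sec24a was at -0.15 ± 0.09 with combo in EV tumors (adjusted p = 0.196), without overlap of the groups.

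Sec24b had 113, 111 and 122 CPM in P53ERTAM combo tumors, 93.9, 80.2 and 112 CPM in P53ERTAM vehicle tumors, 154, 152 and 130.5 CPM in EV combo tumors, and 136, 142 and 143 CPM in EV vehicle tumors. It was lower in P53ERTAM than in EV tumors under vehicle (log2 fold change -0.56 ± 0.12, adjusted p = 0.00268) and under combo (log2 fold change -0.34 ± 0.12, adjusted p = 0.0325), the only member called lower under combo, which was lost at 0.0516 with no filter on low counts, 0.11 without EV combo replicate 1, 0.0962 without EV combo replicate 2, 0.0955 without P53ERTAM combo replicate 1, 0.101 without P53ERTAM combo replicate 2 and 0.0556 without P53ERTAM combo replicate 3. Sec24c had 208, 198 and 218 CPM in P53ERTAM combo tumors, 178, 156 and 208 CPM in P53ERTAM vehicle tumors, 271, 236 and 244 CPM in EV combo tumors, and 224, 251 and 204 CPM in EV vehicle tumors. No combo call was made for Sec24c (0.15 ± 0.12 in EV tumors), and its lower level in P53ERTAM vehicle tumors (adjusted p = 0.0423) was lost in 10 of the other settings. Sec24d had 48.9, 37.8 and 41.1 CPM in P53ERTAM combo tumors, 22.9, 26.8 and 36.7 CPM in P53ERTAM vehicle tumors, 53.8, 32.01 and 46.5 CPM in EV combo tumors, and 28.5, 31.1 and 66.1 CPM in EV vehicle tumors. EV vehicle replicate 3 was the highest of the 12 libraries, and no comparison called Sec24d.

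Sec13, the outer coat subunit shared with the nuclear pore, was the 1 member called higher with combo in P53ERTAM tumors. It had 106, 99.8 and 114 CPM in P53ERTAM combo tumors, 64.3, 54.2 and 85.9 CPM in P53ERTAM vehicle tumors, 98.2, 91.5 and 105 CPM in EV combo tumors, and 128, 119 and 118 CPM in EV vehicle tumors. Every P53ERTAM combo library lay above every P53ERTAM vehicle library (log2 fold change 0.64 ± 0.14, adjusted p = 0.0223), and P53ERTAM vehicle lay below EV vehicle (log2 fold change -0.84 ± 0.14, adjusted p = 0.000658). In EV tumors combo gave -0.31 ± 0.14 (adjusted p = 0.0925). Sec31a, its partner, was not called in any of the 5 comparisons and lay between 162 and 224 CPM over the 12 libraries. By length-corrected level Sar1a (133 TPM on average), Sec24c (113 TPM) and Sec13 (102 TPM) were the highest COPII genes, and Sec23a (22.9 TPM), Sec24d (20.5 TPM) and Sec24a (19.8 TPM) the lowest, with ranges over libraries that overlap among the last 3.

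**Figure D3:**
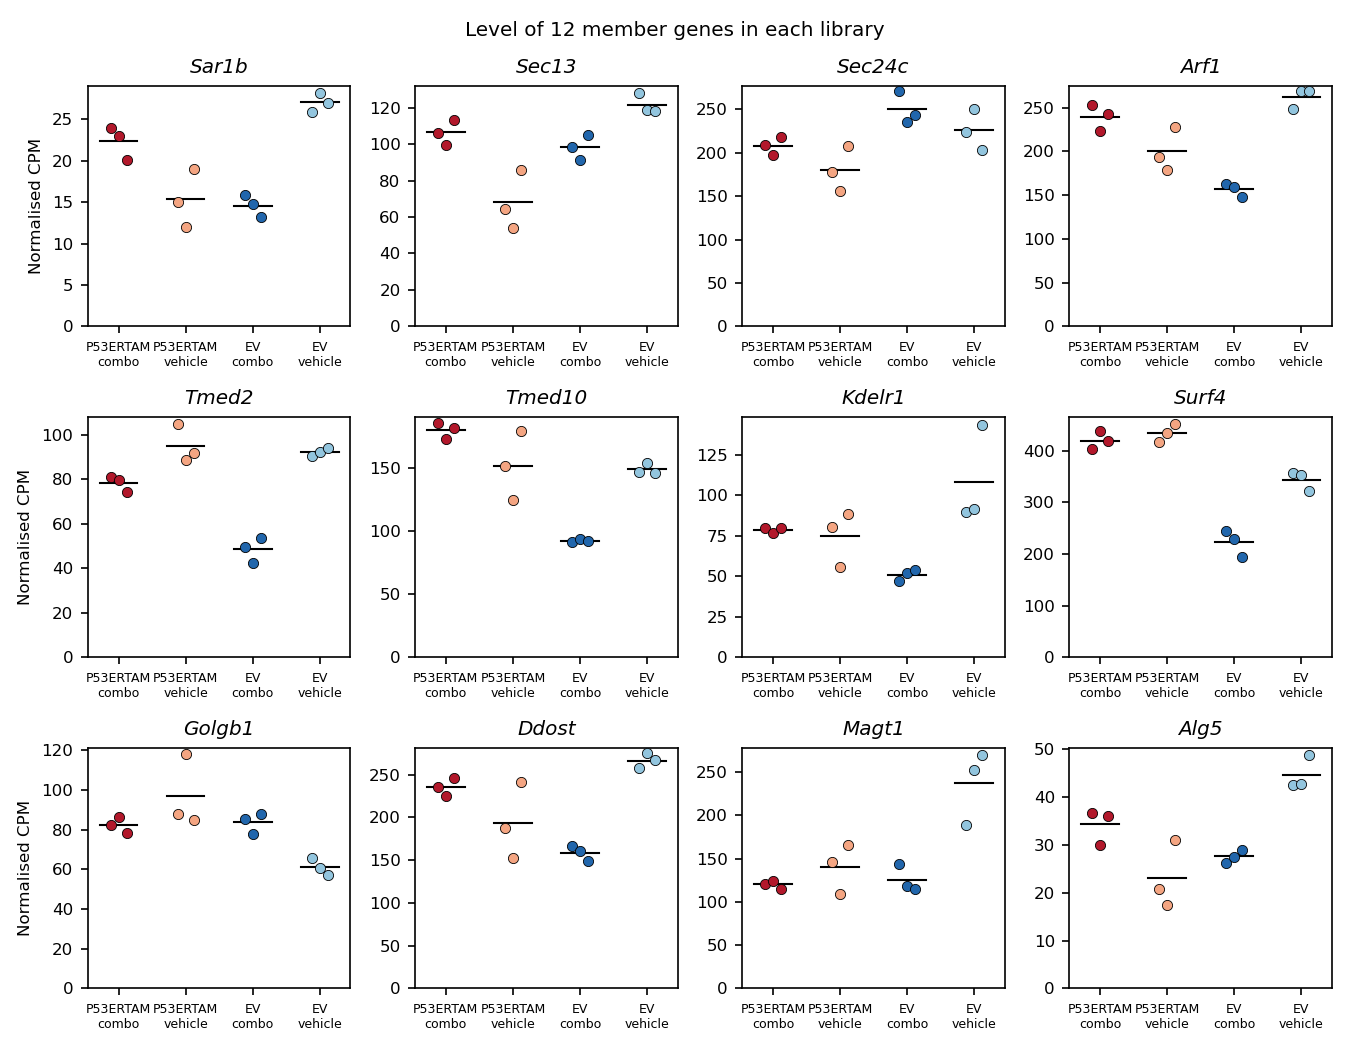
Normalised CPM of 12 members in each library, with lines at group means (n = 3). Sar1b, Sec13, Arf1, Tmed2, Tmed10, Kdelr1, Surf4, Ddost, Magt1 and Alg5 lie lower in EV combo than in EV vehicle tumors. Golgb1 lies higher, and Sec24c overlaps. The lower level of Sec13 in EV combo was not called.

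Of the 7 subunits of coatomer, the COPI coat, 3 were lower with combo in EV tumors (Copb1, Copz1 and Arcn1), 42.9% against 35.5% of protein-coding genes of at least 10 TPM. In P53ERTAM against EV vehicle tumors 6 of 7 were lower, all but Copz1, 85.7% against 32.4% of that class. Copa had 346, 331 and 331 CPM in P53ERTAM combo tumors, 278, 273 and 342 CPM in P53ERTAM vehicle tumors, 414, 366 and 358 CPM in EV combo tumors, and 418, 407 and 419 CPM in EV vehicle tumors. The EV groups overlapped for Copa (-0.13 ± 0.10), and P53ERTAM vehicle lay below EV vehicle (log2 fold change -0.48 ± 0.10, adjusted p = 0.00307). Copb1 had 119, 102 and 115 CPM in P53ERTAM combo tumors, 80.5, 73.6 and 98.9 CPM in P53ERTAM vehicle tumors, 116, 98.2 and 103 CPM in EV combo tumors, and 130.1, 137 and 173 CPM in EV vehicle tumors. It was lower with combo in EV tumors (log2 fold change -0.47 ± 0.14, adjusted p = 0.0136), with an adjusted p of 0.0837 without EV vehicle replicate 3 and 0.0505 without EV combo replicate 2, and lower in P53ERTAM vehicle than EV vehicle tumors (log2 fold change -0.80 ± 0.14, adjusted p = 0.00072). Copb2 had 114, 102 and 118 CPM in P53ERTAM combo tumors, 81.99, 78.03 and 103 CPM in P53ERTAM vehicle tumors, 129, 112 and 123 CPM in EV combo tumors, and 152, 135 and 142 CPM in EV vehicle tumors. Copb2 was called lower only between the vehicle groups among the 4 pairwise comparisons (log2 fold change -0.71 ± 0.12, adjusted p = 0.000578).

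Of the remaining subunits, Copz1 was -0.46 ± 0.12 with combo in EV tumors (adjusted p = 0.00985), which was lost at 0.06 with upper-quartile scaling and 0.677 with exon-length offsets, and Arcn1 was -0.40 ± 0.10 (adjusted p = 0.0074). Copg1 and Cope were not called there. Arf1, the GTPase that recruits coatomer, had 253, 224 and 243 CPM in P53ERTAM combo tumors, 194, 178 and 228 CPM in P53ERTAM vehicle tumors, 163, 159.7 and 148 CPM in EV combo tumors, and 249, 269 and 269 CPM in EV vehicle tumors. EV combo libraries lay below all others (log2 fold change -0.74 ± 0.10, adjusted p = 0.000277), and the interaction was 1.001 ± 0.14 (adjusted p = 0.00054).

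All 6 cargo receptors fell with combo in EV tumors, by 0.62 to 0.93 on the log2 scale, and all 6 were higher in P53ERTAM than in EV combo tumors. None was lower in P53ERTAM than in EV vehicle tumors at the adjusted threshold, at an unadjusted p below 0.05 or by DESeq2. Of protein-coding genes of at least 10 TPM, 35.5% fell with combo in EV tumors and 30% were higher in P53ERTAM than EV combo tumors. Between the vehicle groups 32.4% of that class were lower in P53ERTAM tumors. Tmed2, a p24 family receptor, had 81.1, 79.5 and 74.5 CPM in P53ERTAM combo tumors, 105, 88.5 and 91.7 CPM in P53ERTAM vehicle tumors, 49.6, 42.5 and 53.7 CPM in EV combo tumors, and 90.7, 92.3 and 94.1 CPM in EV vehicle tumors. EV combo was about the same low level in its 3 libraries (log2 fold change -0.93 ± 0.11, adjusted p = 0.000118). Tmed9, of the same family, had 203, 205 and 191 CPM in P53ERTAM combo tumors, 226, 208 and 249 CPM in P53ERTAM vehicle tumors, 149.7, 132 and 149 CPM in EV combo tumors, and 202, 206 and 259 CPM in EV vehicle tumors. It fell in EV tumors (log2 fold change -0.63 ± 0.11, adjusted p = 0.000976), and its interaction, 0.44 ± 0.16, was lost in 16 of the other settings. Tmed10, the p24 family member that pairs with Tmed2, had 186, 174 and 182 CPM in P53ERTAM combo tumors, 152, 124 and 179.8 CPM in P53ERTAM vehicle tumors, 91.8, 93.7 and 92.2 CPM in EV combo tumors, and 147, 154 and 146 CPM in EV vehicle tumors. EV combo lay below all 9 other libraries (log2 fold change -0.69 ± 0.12, adjusted p = 0.000742), and P53ERTAM combo lay above it by 0.96 ± 0.12 (adjusted p = 4.19e-05). The annotation also names 1 pseudogene after Tmed10, whose reads may be shared with it.

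Lman1 and Mcfd2 encode the lectin and its partner that carry coagulation factors and other glycoproteins out of the ER. Lman1 had 273, 253 and 276 CPM in P53ERTAM combo tumors, 274, 211 and 327 CPM in P53ERTAM vehicle tumors, 197, 196 and 177 CPM in EV combo tumors, and 284, 297 and 317 CPM in EV vehicle tumors. Mcfd2 had 117, 123 and 118 CPM in P53ERTAM combo tumors, 121, 109.8 and 126 CPM in P53ERTAM vehicle tumors, 75.3, 85.5 and 66.7 CPM in EV combo tumors, and 112, 112 and 125 CPM in EV vehicle tumors. Both partners fell with combo in EV tumors (Lman1 log2 fold change -0.65 ± 0.13, adjusted p = 0.00209; Mcfd2 log2 fold change -0.62 ± 0.11, adjusted p = 0.000814), and in P53ERTAM tumors the treatment groups overlapped for both. Surf4, a receptor for soluble cargo, had 402, 437 and 418 CPM in P53ERTAM combo tumors, 417, 434 and 452 CPM in P53ERTAM vehicle tumors, 244, 229 and 194 CPM in EV combo tumors, and 356, 353 and 322 CPM in EV vehicle tumors. It fell in EV tumors (log2 fold change -0.63 ± 0.10, adjusted p = 0.000582) and was the 1 receptor higher in P53ERTAM than in EV vehicle tumors (log2 fold change 0.34 ± 0.10, adjusted p = 0.0166).

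KDEL receptors return escaped ER chaperones through COPI. Kdelr1 had 79.7, 76.6 and 79.8 CPM in P53ERTAM combo tumors, 80.5, 55.6 and 88.1 CPM in P53ERTAM vehicle tumors, 46.9, 51.7 and 53.95 CPM in EV combo tumors, and 89.4, 91.1 and 143 CPM in EV vehicle tumors. It fell with combo in EV tumors (log2 fold change -1.08 ± 0.19, adjusted p = 0.000893). EV vehicle replicate 3 was the highest library, and without it the log2 fold change was -0.80 (adjusted p = 0.00278). Kdelr2 had 189, 153 and 201 CPM in P53ERTAM combo tumors, 166, 147 and 213 CPM in P53ERTAM vehicle tumors, 189.9, 157 and 177 CPM in EV combo tumors, and 199, 282 and 294 CPM in EV vehicle tumors. The fall in EV tumors (log2 fold change -0.57 ± 0.17, adjusted p = 0.0171) was lost at 0.326 with exon-length offsets, 0.0709 without EV vehicle replicate 2, 0.0797 without EV vehicle replicate 3 and 0.065 without EV combo replicate 2. Kdelr3 had 7.17, 3.9 and 7.92 CPM in P53ERTAM combo tumors, 2.68, 3.3 and 4.78 CPM in P53ERTAM vehicle tumors, 3.11, 2.89 and 3.7 CPM in EV combo tumors, and 2.27, 3.12 and 3.54 CPM in EV vehicle tumors. At 9.38 TPM it was the lowest member, and it was higher in P53ERTAM than in EV combo tumors (log2 fold change 0.97 ± 0.33, adjusted p = 0.0289), a call lost at 0.16 with exon-length offsets, 0.078 without EV combo replicate 1, 0.0857 without EV combo replicate 2, 0.0961 without P53ERTAM combo replicate 1 and 0.126 without P53ERTAM combo replicate 3.

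Golga2 and Golgb1, which encode the golgins GM130 and giantin that tether vesicles at the Golgi, went the other way. Golga2 had 83.03, 82.4 and 83.8 CPM in P53ERTAM combo tumors, 70.9, 90.1 and 81.7 CPM in P53ERTAM vehicle tumors, 109, 95.8 and 85.5 CPM in EV combo tumors, and 73.4, 64.9 and 58.4 CPM in EV vehicle tumors. It rose with combo in EV tumors (log2 fold change 0.56 ± 0.12, adjusted p = 0.00324) without overlap. Golgb1 had 82.6, 86.3 and 78.2 CPM in P53ERTAM combo tumors, 87.8, 118 and 84.8 CPM in P53ERTAM vehicle tumors, 85.5, 77.8 and 87.9 CPM in EV combo tumors, and 65.6, 60.5 and 57.1 CPM in EV vehicle tumors. EV vehicle was below every other group for Golgb1, so that it was higher with combo in EV tumors (log2 fold change 0.46 ± 0.13, adjusted p = 0.0116) and in P53ERTAM than EV vehicle tumors (log2 fold change 0.67 ± 0.13, adjusted p = 0.0014). The first of these was lost at 0.14 with exon-length offsets. Within COPI and its receptors Kdelr2 (352 TPM), Surf4 (351 TPM) and Arf1 (335 TPM) had the highest levels and overlapping ranges, and Golga2 (48.8 TPM), Golgb1 (20.9 TPM) and Kdelr3 the lowest.

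All 10 OST subunits among the members fell with combo in EV tumors, by 0.44 to 0.92 on the log2 scale, and 9 of 10 had a called interaction. Of protein-coding genes of at least 10 TPM, 35.5% were lower with combo in EV tumors and 31.2% had a positive called interaction. Stt3a, the catalytic subunit of the complex that glycosylates during translation, had 287, 288 and 286 CPM in P53ERTAM combo tumors, 274, 169 and 302 CPM in P53ERTAM vehicle tumors, 251, 222 and 226 CPM in EV combo tumors, and 313, 336 and 344 CPM in EV vehicle tumors. Its fall (log2 fold change -0.50 ± 0.16, adjusted p = 0.0232) was lost at 0.0717 with upper-quartile scaling, 0.0651 with protein-coding genes only, 0.0662 without EV vehicle replicate 2, 0.0721 without EV vehicle replicate 3, 0.0699 without EV combo replicate 2 and 0.0668 without EV combo replicate 3. Stt3b, the catalytic subunit of the complex that also acts after translation, had 367, 352 and 369.8 CPM in P53ERTAM combo tumors, 347, 297 and 405 CPM in P53ERTAM vehicle tumors, 323, 295 and 303 CPM in EV combo tumors, and 407, 454 and 462 CPM in EV vehicle tumors. The EV groups did not overlap for Stt3b (log2 fold change -0.52 ± 0.11, adjusted p = 0.00272). Ddost, a scaffold subunit, had 235, 225 and 246 CPM in P53ERTAM combo tumors, 187, 153 and 241 CPM in P53ERTAM vehicle tumors, 166, 160.3 and 149 CPM in EV combo tumors, and 257, 275 and 267 CPM in EV vehicle tumors. EV combo lay below EV vehicle and below P53ERTAM combo in every library (log2 fold change -0.75 ± 0.13, adjusted p = 0.001), and the interaction was 1.03 ± 0.19 (adjusted p = 0.00156).

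The ribophorins Rpn1 and Rpn2 are also OST subunits. Rpn1 had 352, 337 and 370.5 CPM in P53ERTAM combo tumors, 330.1, 200.3 and 348 CPM in P53ERTAM vehicle tumors, 326, 320.3 and 334 CPM in EV combo tumors, and 451, 475 and 461 CPM in EV vehicle tumors. P53ERTAM vehicle replicate 2 was the lowest library, and the fall with combo in EV tumors (log2 fold change -0.50 ± 0.16, adjusted p = 0.0211) was lost at 0.0702 with upper-quartile scaling, 0.0618 with protein-coding genes only, 0.0659 without EV vehicle replicate 2, 0.0537 without EV vehicle replicate 3, 0.0568 without EV combo replicate 1 and 0.058 without EV combo replicate 2. Rpn2 had 402, 399 and 448 CPM in P53ERTAM combo tumors, 373, 280.1 and 452 CPM in P53ERTAM vehicle tumors, 350.1, 330.4 and 309.8 CPM in EV combo tumors, and 448, 488 and 470.4 CPM in EV vehicle tumors. Its fall in EV tumors (log2 fold change -0.51 ± 0.14, adjusted p = 0.0118) held in each setting tried. Dad1, a small subunit named for a defence against cell death, had 76.7, 84.1 and 81.6 CPM in P53ERTAM combo tumors, 89.7, 58.4 and 84.5 CPM in P53ERTAM vehicle tumors, 48.2, 48.98 and 49.8 CPM in EV combo tumors, and 78.3, 78.2 and 74.4 CPM in EV vehicle tumors. The EV combo libraries lay below all others (log2 fold change -0.65 ± 0.13, adjusted p = 0.00235).

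Ost4, the smallest subunit, had 40.9, 40.5 and 45.3 CPM in P53ERTAM combo tumors, 39.95, 27.4 and 45.8 CPM in P53ERTAM vehicle tumors, 35.98, 29.7 and 34.7 CPM in EV combo tumors, and 56.4, 52.4 and 54.7 CPM in EV vehicle tumors. It fell in EV tumors (log2 fold change -0.70 ± 0.16, adjusted p = 0.00379), which was lost at 0.175 with exon-length offsets. Of its exon bases 53.2% overlap Agbl5 on the opposite strand. The strand setting of the counting is not given in the sources used here, so reads of the 2 genes may not be told apart. Ostc, found in the STT3A complex, had 95.6, 82.4 and 95.2 CPM in P53ERTAM combo tumors, 81.3, 51.9 and 92.2 CPM in P53ERTAM vehicle tumors, 67.2, 63.8 and 68.4 CPM in EV combo tumors, and 95.5, 109.7 and 122 CPM in EV vehicle tumors. It fell with combo in EV tumors (log2 fold change -0.71 ± 0.17, adjusted p = 0.00523). Tusc3 and Magt1 are alternative oxidoreductase subunits of the STT3B complex. Tusc3 had 73.9, 68.9 and 74.96 CPM in P53ERTAM combo tumors, 71.6, 61.1 and 78.3 CPM in P53ERTAM vehicle tumors, 62.8, 61.5 and 43.8 CPM in EV combo tumors, and 77.9, 78.2 and 72.2 CPM in EV vehicle tumors. Its fall in EV tumors (log2 fold change -0.44 ± 0.14, adjusted p = 0.0207) was lost in 7 of the other settings, without 1 library in 3 of these: EV vehicle replicate 1, EV vehicle replicate 2 and EV combo replicate 3. Magt1 had 121, 125 and 115 CPM in P53ERTAM combo tumors, 147, 109 and 166 CPM in P53ERTAM vehicle tumors, 143, 118 and 114 CPM in EV combo tumors, and 189, 253 and 270.0 CPM in EV vehicle tumors. EV vehicle lay above every other group, both in the fall with combo (log2 fold change -0.92 ± 0.16, adjusted p = 0.000882) and between the vehicle groups (log2 fold change -0.75 ± 0.16, adjusted p = 0.00281).

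The balance between paralogs was read from their TPM. The TPM ratio of Tusc3 to Magt1 was 0.823 ± 0.0671 in P53ERTAM combo, 0.689 ± 0.0623 in P53ERTAM vehicle, 0.609 ± 0.0935 in EV combo and 0.449 ± 0.101 in EV vehicle tumors (SD, n = 3 each). That of Stt3a to Stt3b was 0.373 ± 0.0112 in P53ERTAM combo, 0.331 ± 0.0545 in P53ERTAM vehicle, 0.358 ± 0.00806 in EV combo and 0.354 ± 0.00746 in EV vehicle tumors, and the groups overlapped in each of the 4 pairwise comparisons. P53ERTAM combo and EV vehicle, which none of these pairs, did not overlap. Sar1a over Sar1b was 2.65 ± 0.174 in P53ERTAM combo, 3.55 ± 0.425 in P53ERTAM vehicle, 2.48 ± 0.312 in EV combo and 2.09 ± 0.167 in EV vehicle tumors. Kdelr2 over Kdelr1 was 2.35 ± 0.280 in P53ERTAM combo, 2.43 ± 0.294 in P53ERTAM vehicle, 3.54 ± 0.546 in EV combo and 2.52 ± 0.572 in EV vehicle tumors, and the EV groups overlapped. Differences in these ratios were not tested.

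**Figure D4:**
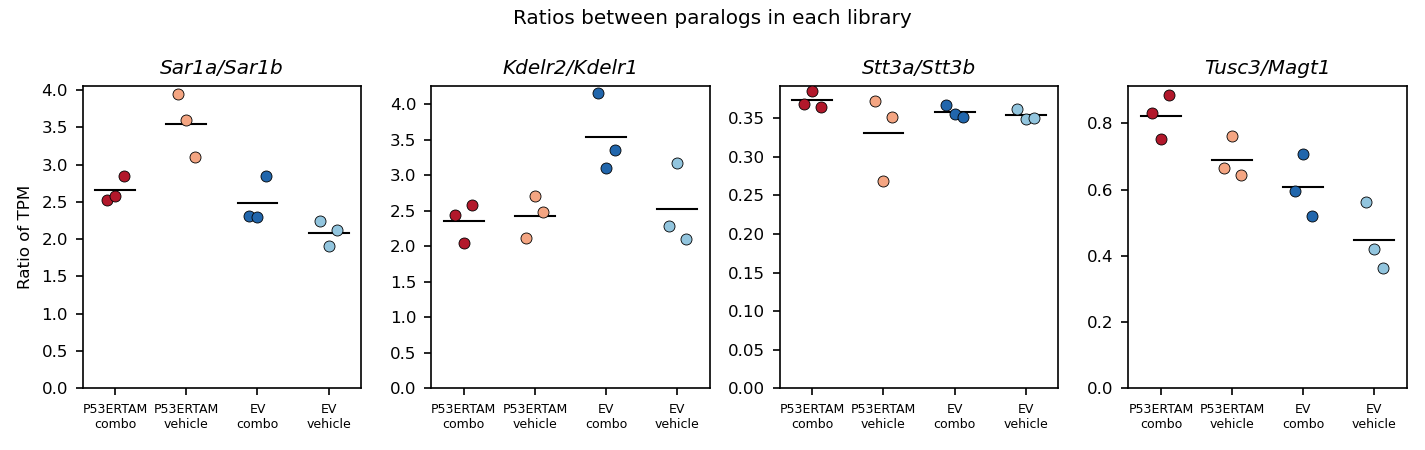
Ratio of TPM between 4 pairs of paralogs in each library, with lines at group means (n = 3). Tusc3 over Magt1 averages 0.823 in P53ERTAM combo and 0.449 in EV vehicle tumors, and Stt3a over Stt3b averages 0.331 to 0.373 over the groups, with P53ERTAM vehicle replicate 2 lowest.

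The ALG enzymes assemble the lipid-linked glycan, and 2 of their 6 genes, Alg5 and Alg9, were lower with combo in EV tumors, 33.3% against 35.5% of protein-coding genes of at least 10 TPM. Alg5, which makes the glucose donor, had 36.7, 30.01 and 36.1 CPM in P53ERTAM combo tumors, 20.9, 17.5 and 31.1 CPM in P53ERTAM vehicle tumors, 26.3, 27.4 and 29.00 CPM in EV combo tumors, and 42.5, 42.6 and 48.7 CPM in EV vehicle tumors. It fell in EV tumors (log2 fold change -0.69 ± 0.18, adjusted p = 0.0077) and its interaction was 1.26 ± 0.25 (adjusted p = 0.00244). Alg9, a mannosyltransferase, had 49.03, 50.9 and 49.8 CPM in P53ERTAM combo tumors, 45.8, 45.6 and 64.2 CPM in P53ERTAM vehicle tumors, 49.2, 49.1 and 55.8 CPM in EV combo tumors, and 64.9, 76.2 and 84.3 CPM in EV vehicle tumors. Its fall (log2 fold change -0.55 ± 0.14, adjusted p = 0.00816) came with 12.9% of its exon bases overlapping another gene on the opposite strand. Alg8, a glucosyltransferase, had 9.79, 11.3 and 13.1 CPM in P53ERTAM combo tumors, 10.5, 7.49 and 10.2 CPM in P53ERTAM vehicle tumors, 10.8, 12.3 and 12.4 CPM in EV combo tumors, and 12.4, 14.1 and 21.8 CPM in EV vehicle tumors. It was called lower between the vehicle groups only (log2 fold change -0.77 ± 0.23, adjusted p = 0.0163), with EV vehicle replicate 3 the highest library, and this was lost at 0.0604 with only the 2 groups of the comparison, 0.0988 without EV vehicle replicate 3 and 0.0695 without P53ERTAM vehicle replicate 2.

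Alg1, the first mannosyltransferase of the pathway, had 17.2, 18.6 and 19.8 CPM in P53ERTAM combo tumors, 16.7, 12.6 and 12.5 CPM in P53ERTAM vehicle tumors, 11.99, 14.7 and 14.6 CPM in EV combo tumors, and 14.6, 15.3 and 13.5 CPM in EV vehicle tumors. It was higher in P53ERTAM than EV combo tumors (log2 fold change 0.43 ± 0.16, adjusted p = 0.0428), a call lost in 12 of the other settings. Of its exon bases 17.6% overlap Eef2kmt. Alg2, the next mannosyltransferase, had 23.1, 25.8 and 24.9 CPM in P53ERTAM combo tumors, 25.2, 20.99 and 27.4 CPM in P53ERTAM vehicle tumors, 16.5, 15.5 and 18.1 CPM in EV combo tumors, and 19.3, 21.9 and 17.97 CPM in EV vehicle tumors. The same comparison called Alg2 (log2 fold change 0.56 ± 0.14, adjusted p = 0.00621), and neither combo comparison did. Alg12, also a mannosyltransferase and the 1 member with an ERSE, was not called in any comparison.

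Of the 4 genes of glycan trimming and of its folding check, 3 were lower with combo in EV tumors, 75% against 35.5% of protein-coding genes of at least 10 TPM. The exception was Uggt1, the folding sensor that puts glucose back. Mogs, glucosidase I, had 107, 118 and 115 CPM in P53ERTAM combo tumors, 169, 122 and 153 CPM in P53ERTAM vehicle tumors, 103, 122 and 100.4 CPM in EV combo tumors, and 151, 175 and 144 CPM in EV vehicle tumors. It was lower in EV combo tumors (log2 fold change -0.53 ± 0.13, adjusted p = 0.00562), lost at 0.0808 with exon-length offsets, and in P53ERTAM tumors the combo libraries also lay below the vehicle libraries without passing the threshold (log2 fold change -0.39 ± 0.13, adjusted p = 0.085). Ganab, the catalytic subunit of glucosidase II, had 464, 532 and 521 CPM in P53ERTAM combo tumors, 587, 371 and 620.1 CPM in P53ERTAM vehicle tumors, 402, 484 and 316 CPM in EV combo tumors, and 625, 649 and 655 CPM in EV vehicle tumors. It had the highest level of the N-glycosylation genes (438 TPM) and fell in EV tumors (log2 fold change -0.68 ± 0.18, adjusted p = 0.00902). Prkcsh, the other subunit of glucosidase II, had 154, 141 and 163 CPM in P53ERTAM combo tumors, 139.5, 124 and 183 CPM in P53ERTAM vehicle tumors, 132, 146 and 108 CPM in EV combo tumors, and 188, 201 and 186 CPM in EV vehicle tumors. It also fell in EV tumors (log2 fold change -0.58 ± 0.14, adjusted p = 0.00646). After Ganab, Ddost (329 TPM) and Rpn2 (292 TPM) were highest, and Alg2 (20.2 TPM), Alg1 (18.6 TPM) and Alg8 (14.3 TPM) lowest, with overlapping ranges within each set of 3.

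Exon length moved with the combo result in EV tumors. Among protein-coding genes of at least 10 TPM, the share called lower was 50.7% for exons under 3000 bases, 35.5% for 3000 to 6000 bases and 20.9% for over 6000 bases. The members gave 11 of 14, 15 of 20 and 3 of 14 in the same classes. Positive called interactions made 49.1, 30.9 and 14.5% of all genes of these classes and 9 of 14, 14 of 20 and 4 of 14 members. The median interaction was 0.681, 0.655 and 0.378 over the members and 0.675, 0.293 and -0.0188 over all genes of these classes. Over the 49 members the rank correlation of the EV log2 fold change with exon length was 0.474, and that of the interaction was -0.465, given as descriptions since genes share libraries. With offsets that take out a trend with exon length in each library, 26 members were lower with combo in EV tumors and 1 higher. The classes and the offsets were chosen after seeing the data, and the part of length in the result was otherwise not tested.

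**Figure D5:**
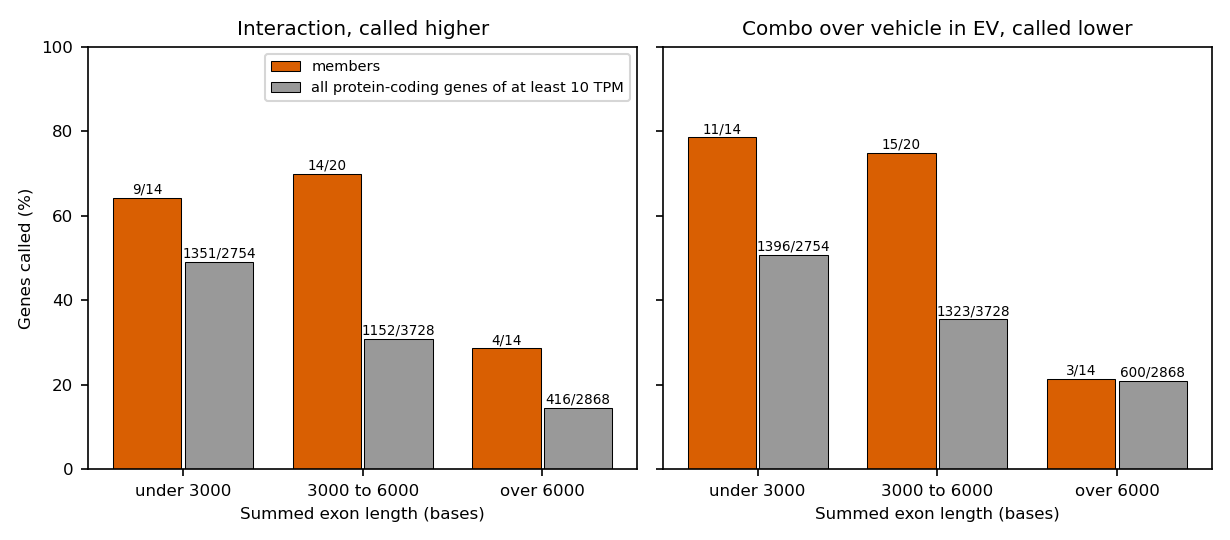
Percent of genes with a positive called interaction (left) and called lower with combo in EV tumors (right) by summed exon length, for the members and for all protein-coding genes of at least 10 TPM; numbers over the bars are called over total. On the left the members are at 64.3, 70 and 28.6% and all genes at 49.1, 30.9 and 14.5%. On the right the members are at 78.6, 75 and 21.4% and all genes at 50.7, 35.5 and 20.9%.

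The XBP1 and ATF6 arms were read beside these genes. Xbp1 had 134, 142 and 137 TPM in P53ERTAM combo tumors, 94.95, 85.5 and 126 TPM in P53ERTAM vehicle tumors, 92.7, 108 and 84.8 TPM in EV combo tumors, and 117, 162 and 262 TPM in EV vehicle tumors. It was lower with combo in EV tumors (log2 fold change -1.10 ± 0.23, adjusted p = 0.00278), not called in P53ERTAM tumors (0.29 ± 0.23), and its interaction was 1.38 ± 0.32 (adjusted p = 0.00609). Xbp1 was also called lower in P53ERTAM than EV tumors under vehicle, lost in 5 of 14 other settings. Under combo it was called higher in P53ERTAM tumors, lost in 10 of 14. The Xbp1 counts cover the whole gene and do not show its splicing. Atf6 had 52.7, 51.9 and 51.3 TPM in P53ERTAM combo tumors, 37.9, 29.5 and 40.04 TPM in P53ERTAM vehicle tumors, 31.2, 30.1 and 32.2 TPM in EV combo tumors, and 35.8, 31.7 and 32.4 TPM in EV vehicle tumors. With combo it was lower in EV tumors (log2 fold change -0.27 ± 0.09, adjusted p = 0.0278) and higher in P53ERTAM tumors (log2 fold change 0.39 ± 0.09, adjusted p = 0.0266). The first of these calls was lost in 10 of 14 other settings (adjusted p 0.0537 to 0.278) and the second in 5 of 14 (0.0557 to 0.105). Each of these 5 left out 1 library. The interaction of Atf6 held in every setting tried (0.67 ± 0.13, adjusted p = 0.00195). Its call as higher in P53ERTAM than EV combo tumors also held in every setting tried. Ern1, which encodes IRE1α, had 31.5, 33.3 and 30.4 TPM in P53ERTAM combo tumors, 28.6, 25.6 and 28.2 TPM in P53ERTAM vehicle tumors, 27.8, 30.99 and 27.3 TPM in EV combo tumors, and 22.99, 27.6 and 24.5 TPM in EV vehicle tumors. It was called in none of the 5 comparisons.

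Of 74 other genes of these pathways, 73 were tested. With combo in EV tumors 38 were lower (52.1%, against 35.5% of protein-coding genes of at least 10 TPM) and 8 higher. In P53ERTAM tumors 1 was lower (Rint1, log2 fold change -0.41 ± 0.11, adjusted p = 0.0498) and 0 higher by edgeR. There were 12 higher and 10 lower at an unadjusted p below 0.05 and 4 higher and 5 lower by DESeq2. Over all 17970 genes DESeq2 called 1142 higher and 1211 lower there, and the share at the unadjusted threshold is not given here. The call of Rint1 was lost in 8 of 14 other settings, 5 of them with 1 library left out. P53ERTAM against EV gave 20 lower (27.4%) and 8 higher (11%) under vehicle, against 32.4% and 14.2% of that class. Under combo it gave 16 lower (21.9%) and 26 higher (35.6%), against 21.6% and 30%. These shares are near those of the class. The interaction gave 35 positive (47.9%) and 10 negative (13.7%) calls, against 31.2% and 11.6%. On the COPII side, the tethering GTPases Rab1a (-0.76 ± 0.10) and Rab1b (-1.01 ± 0.15) and the cycling protein Ergic1 (-0.88 ± 0.13) fell with combo in EV tumors. The SNAREs Gosr2 (0.80 ± 0.09) and Ykt6 (0.83 ± 0.11) and Rab1a (0.63 ± 0.10) were higher in P53ERTAM than EV combo tumors. Cnih4 (-0.81 ± 0.14), Mia2 (-0.59 ± 0.12) and Yif1a (-1.07 ± 0.22) were lower between the vehicle groups.

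On the COPI side, Arf5 (-0.84 ± 0.09) and the p24 receptor Tmed7 (-0.93 ± 0.13) fell with combo in EV tumors while Arfgap1, which switches ARF1 off, rose (0.99 ± 0.13). The exchange factor Gbf1 (-0.83 ± 0.11) and the tether subunit Zw10 (-0.78 ± 0.14) were lower and Arf3 (0.70 ± 0.11) higher in P53ERTAM than EV vehicle tumors, and Tmed4 (0.80 ± 0.09), Arf3 (0.97 ± 0.11) and Tmed1 (1.03 ± 0.15) were higher under combo. In N-glycosylation, Nus1, of the enzyme that makes dolichol (-0.78 ± 0.09), Dpm3 (-1.25 ± 0.21) and the OST subunit Krtcap2 (-0.92 ± 0.15) fell with combo in EV tumors. Dpagt1, which starts the lipid-linked glycan (-0.95 ± 0.15), the OST subunit Tmem258 (-1.12 ± 0.19) and Alg13 (-0.67 ± 0.12) were lower between the vehicle groups. Nus1 (0.86 ± 0.09) and Mlec (0.58 ± 0.10) were higher and Alg13 (-1.32 ± 0.13) lower under combo. The interactions of smallest p in these lists were those of Rab1a (0.998 ± 0.14), Ykt6 (1.01 ± 0.16) and Gosr2 (0.79 ± 0.13), of Arfgap1 (-1.17 ± 0.18), Rint1 (-0.95 ± 0.16) and Tmed3 (1.28 ± 0.23), and of Nus1 (0.72 ± 0.12), Dpm1 (-2.38 ± 0.41) and Dpagt1 (1.13 ± 0.21).

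Markers of other cell types moved between the groups too. The 9 macrophage markers summed to 2065 to 2796 TPM in P53ERTAM combo, 670.0 to 899 TPM in P53ERTAM vehicle, 632 to 848 TPM in EV combo and 434 to 947 TPM in EV vehicle tumors, with Cd163 below 1 TPM everywhere. The 10 fibroblast markers summed to 690 to 977 TPM in P53ERTAM combo, 676 to 1381 TPM in P53ERTAM vehicle, 519 to 953 TPM in EV combo and 241 to 255 TPM in EV vehicle tumors. The 6 endothelial markers summed to 101 to 144 TPM in P53ERTAM combo, 76.0 to 114 TPM in P53ERTAM vehicle, 58.5 to 108 TPM in EV combo and 25.6 to 57.5 TPM in EV vehicle tumors. The 10 epithelial markers summed to 3703 to 4589 TPM in P53ERTAM combo, 2411 to 3640 TPM in P53ERTAM vehicle, 3789 to 5046 TPM in EV combo and 5370 to 6792 TPM in EV vehicle tumors. These did not move as one: with combo 2 of 10 were lower in P53ERTAM tumors and 5 of 10 in EV tumors, and between the vectors 8 were lower under vehicle and 2 lower and 2 higher under combo. The basal keratin Krt5, singled out after its values were seen, was at 3.45 to 5.23 TPM in P53ERTAM combo, 14.3 to 30.3 TPM in P53ERTAM vehicle, 111 to 229 TPM in EV combo and 18.8 to 148 TPM in EV vehicle tumors. Krt14, another basal keratin singled out likewise, was at 11.2 to 15.7 TPM in P53ERTAM combo, 35.4 to 74.8 TPM in P53ERTAM vehicle, 183 to 254 TPM in EV combo and 124 to 244 TPM in EV vehicle tumors. Plasma cells, which are rich in these genes, gave 8 markers summing to 174 to 309 TPM in P53ERTAM combo, 118 to 155 TPM in P53ERTAM vehicle, 129 to 173 TPM in EV combo and 110 to 2682 TPM in EV vehicle tumors, with Tnfrsf17 at or near 0 throughout. The high value was EV vehicle replicate 2, and without it 25 members were lower with combo in EV tumors. In every other library Sdc1 had the most counts of the 8 markers, at 1981 to 4251. Ighm had 70 to 1085 counts there, Igkc 0 to 441, Jchain 4 to 232 and Mzb1 0 to 14. The sums of those libraries therefore need not reflect plasma cells. The part of these cells in the results was not tested.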

How the data were processed

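Per the submitters' processing notes the reads of 12 libraries were handled with FastQC, fastp, STAR and featureCounts on GRCm38.p5, without versions. RNA was isolated with a Direct-zol kit and libraries were made with a stranded, ribosome-depleting Illumina kit, per the labels' protocols. The deposited files hold raw read counts per gene with summed exon lengths, per the file headers, and no normalization. The annotation release and strand setting are not given in the sources used here. Totals were 13484873 to 24424964 counts per library.

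Groups were taken from the sample titles. Of the genes counted, 17970 passed filterByExpr, and at least 99.85% of the counts of each library were kept. All 12 libraries entered a single model with a mean for each group, leaving 8 residual degrees of freedom (edgeR 4.0.16 in R 4.3.3, TMM factors 0.941 to 1.05, robust quasi-likelihood F-test), and 5 comparisons were drawn from it: combo with vehicle within P53ERTAM and within EV tumors, P53ERTAM with EV under vehicle and under combo, and the interaction. Benjamini-Hochberg adjustment ran over all 17970 genes, and the threshold was 0.05. TPM were computed from counts and exon length.

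Genes with values in every library are the members of smallest p in each sub-group, the paralog sets, and the 3 highest and 3 lowest members by TPM; the remaining members are given by counts or ranges. Of other pathway genes, the 3 of smallest p per list and comparison are named. The members and lists were chosen with earlier results of these data known. Alternatives were other scalings, DESeq2 1.42.0, no filter, protein-coding genes only, a fit of only the groups compared, each library left out, a replicate block and, chosen after seeing the data, offsets from a lowess of span 0.3 over exon length. Protein sequences were not used here.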

Additional observations from a re-analysis of the deposited data

Results flagged for a closer look

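The combo effect differed between P53ERTAM and EV tumors, by the interaction in edgeR, for 29 members, with 27 positive values. Called interactions were positive for 18.8% and negative for 17.2% of all genes tested. The shares were 31.2% and 11.6% of protein-coding genes of at least 10 TPM. In COPII the log2 interactions were 1.43 for Sar1b, 0.95 for Sec13 and 0.78 for Sar1a. In coatomer they were 0.88 for Copb1, 0.74 for Cope, 0.60 for Copz1, 0.58 for Copb2 and 0.51 for Arcn1, and Arf1 had 1.001. Among cargo receptors Tmed10 had 0.93, Tmed2 0.65, Lman1 0.63, Mcfd2 0.62, Surf4 0.57 and Tmed9 0.44, and the receptor Kdelr1 had 1.16. In the OST they were 1.03 for Ddost, 0.99 for Ostc, 0.87 for Ost4, 0.77 for Rpn1, 0.71 for Stt3a, 0.71 for Dad1, 0.69 for Magt1, 0.68 for Rpn2 and 0.58 for Stt3b. Of the other glycosylation genes Alg5 had 1.26 and Prkcsh 0.61. The negative values were -0.69 for Golgb1 and -0.52 for Golga2. Of the 29 calls, 9 held in every setting tried.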

How the results depend on the processing

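No called direction was reversed in any setting tried. The calls that held in every setting numbered 22 of 31 for combo in EV tumors and 0 of 1 for combo in P53ERTAM tumors; for P53ERTAM against EV they numbered 13 of 27 in vehicle and 9 of 19 in combo tumors, and for the interaction 9 of 29. The causes of the changes below were not tested. The number of calls over all genes also changed between settings, so a changed member count need not be particular to the members. For combo in EV tumors, 25 to 28 members were lower and 2 higher with 1 library left out, and 1 was higher with exon-length offsets. In P53ERTAM tumors the number higher was 4 by DESeq2, 2 without a filter and 0 to 9 with 1 library left out, and the number lower was 1 by DESeq2 and 2 with exon-length offsets. Between the vectors under vehicle, 4 were higher with upper-quartile scaling, with protein-coding genes only and with exon-length offsets; 13 were lower with upper-quartile scaling and 12 in a fit of only these groups, and 16 to 29 with 1 library left out. Under combo, 9 were higher with exon-length offsets; the number lower was 2 with upper-quartile scaling and by DESeq2, 0 without a filter, 6 with protein-coding genes only, 5 in a fit of only these groups and 0 to 1 with 1 library left out. For the interaction, 15 were positive with upper-quartile scaling and 17 with exon-length offsets, and 1 was negative with exon-length offsets and 1 to 2 with 1 library left out.

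Upper-quartile scaling moved the median of all genes by 0.147 for combo in EV tumors, 0.17 between the vectors under vehicle and -0.2 for the interaction; the member medians were then -0.35, -0.20 and 0.41. Exon-length offsets moved it by 0.181 for combo in EV tumors, -0.102 in P53ERTAM tumors, -0.172 between the vectors under combo and -0.282 for the interaction, and restriction to protein-coding genes moved it by 0.13 for combo in EV tumors, -0.109 between the vectors under combo and -0.18 for the interaction. Of all calls for combo in EV tumors, 47.2% were higher, against 62.4% with upper-quartile scaling and 59.8% with exon-length offsets. Of 18 pairs of libraries with the same replicate number in different groups, 2 had deviations correlated above 0.1 (range -0.149 to 0.211). Both, at 0.129 and 0.211, lay between P53ERTAM vehicle and P53ERTAM combo tumors. With 3 libraries per group this cannot exclude that the numbers pair the tumors. With a replicate block 29 members were lower and 2 higher with combo in EV tumors, 2 were higher in P53ERTAM tumors, 25 lower and 2 higher between the vectors under vehicle, 16 higher and 1 lower under combo, and 30 positive and 2 negative for the interaction.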
